A study of Homo sapiens with 46 samples.

Results

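The Lamin A/C response beyond auxin at 96 h is the change of a Lamin A/C degron line over 96 h of auxin minus the change of its untagged parent over the same 96 h. It was computed for each gene as (LAC at 96 h - LAC at 0 h) - (parental at 96 h - parental at 0 h) from RNA-seq counts of DLD-1, a cell line established from a human colorectal adenocarcinoma. It rests on 16 of the 46 libraries of the series, in 4 groups of 4 replicates: untagged parental cells with no auxin (0 h), parental cells after 96 h with 1 mM auxin in DMSO, and the LAC line, whose endogenous Lamin A/C carries an N-terminal auxin-inducible degron, at the same 0 and 96 h. The remaining libraries hold both lines at 16 h and lines with the degron on Lamin B1 (LB1) or Lamin B2 (LB2), and they enter the estimate of the spread. Each replicate was RNA from 1 well of a 6-well plate, so p-values measure the spread between wells of 1 line. The labels name 1 LAC line and not how many clones it was grown from. A difference of that line and a difference caused by its degron therefore cannot be told apart. This holds at 0 h, at 96 h and in the response beyond auxin. Of 62756 usable genes in the count table, 21484 passed the filter on low counts and were tested. A gene is called at an adjusted p under 0.05 in edgeR's quasi-likelihood test (Benjamini-Hochberg over the 21484 genes).

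Lamins are intermediate filament proteins that form a mesh under the inner nuclear membrane. Lamin A and Lamin C are splice products of 1 gene, LMNA, and they anchor heterochromatin, hold the nuclear pores and inner membrane proteins in place and carry force between the cytoskeleton and the nucleus. The degron is a tag that a plant F-box protein recognises in the presence of auxin, after which the tagged protein is sent to the proteasome. It acts on the protein and leaves the transcript in place. Auxin-like indoles can also be ligands of the aryl hydrocarbon receptor, so the parental cells with auxin are the control for effects of the compound. A positive response difference means that the change in LAC was the more positive one, which can come from a rise in LAC, a fall in the parental line, or both. For this reason both changes are given for each gene.

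The 16 libraries held 3318819 to 29739484 counts, and 2 of them (parental 0 h replicate 4 and LAC 0 h replicate 1) were under 5000000. The LAC 0 h group stood apart: over 8600 well-measured genes the median SD of log2 CPM (CPM: counts scaled by TMM to a library of 1000000) between its replicates was 0.311, against 0.157 in parental 0 h, 0.151 in parental 96 h and 0.126 in LAC 96 h. Spearman's rho between a library's deviation from the gene means and the GC content of the gene was 0.73, -0.16, 0.59 and 0.44 in LAC 0 h replicates 1 to 4, and 0.13, -0.56, -0.47 and -0.26 in LAC 96 h. The parental libraries had 0.11, -0.27, 0.33 and 0.09 at 0 h and -0.35, 0.63, -0.04 and -0.09 at 96 h. Each result below was therefore also computed with the smooth trend of each library over GC content and gene length removed ("trend removed"), and with each of the 16 libraries left out in turn. Markers of colorectal epithelium summed to 6889.8 to 10312.2 CPM, with KRT8 the highest. Fibroblast markers summed to at most 7.23 CPM with COL1A2 and DCN at 0 in all 16 libraries, leukocyte markers to at most 5.53 CPM, and endothelial markers to 9.22 to 24 CPM with KDR at 0. Fewer cells of a type and less RNA per cell cannot be told apart in such bulk samples.

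LMNA (chr1:156082573-156140081, GRCh38), the targeted gene, is the first check of the labels, although a degron acts on protein and its transcript need not change. In replicates 1 to 4 the parental libraries held 794, 614.5, 862 and 680.0 CPM at 0 h and 485, 758, 516 and 519 at 96 h, and the LAC libraries 773, 263, 373 and 332 at 0 h and 332, 203, 240.0 and 304 at 96 h. At 96 h all 4 LAC libraries lay below all 4 parental ones, and the LAC minus parental level was -1.08 on the log2 scale (adjusted p = 0.0168) against -0.77 at 0 h (adjusted p = 0.0346). The response difference itself was -0.31 ± 0.36 (log2 ± SE, n = 4 per group, adjusted p = 0.652) and took the opposite sign, 0.26, with the trend removed. In LMNB1, which encodes Lamin B1, it was -0.61 ± 0.21 (adjusted p = 0.0588) and the gene was not called. For LMNB2, which encodes Lamin B2, the parental libraries held 292, 298, 307 and 235 CPM at 0 h and 365, 475, 404 and 413 at 96 h, and the LAC libraries 634, 392, 511 and 454 and then 449.6, 248, 283 and 384. The parental values were separate between the times and the LAC values overlapped. Its response difference of -1.09 ± 0.29 was called (adjusted p = 0.0177; -0.57 with the trend removed, adjusted p = 0.0196), but not without LAC 96 h replicate 2 (adjusted p = 0.0577).

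Across all genes, 1589 were called (7.4% of those tested), 665 with a positive response difference (3.1%) and 924 with a negative one (4.3%). The unadjusted p was under 0.05 in 5056 genes. A difference of at least 2-fold was found for 473 of the genes called higher and 294 of those called lower. These became 505 and 74 with the trend removed, 846 and 98 with library size alone, and 401 and 129 without libraries under 5000000 counts. The split by direction depended on the scaling. RLE scaling gave 902 higher (4.2%) and 675 lower (3.14%), 7.34% in all, and library size alone 1408 higher (6.55%) and 355 lower (1.65%), 8.21% in all, while the median over all tested genes moved from 0.06 to 0.13 and 0.27. With the trend removed there were 915 higher and 927 lower (4.26% and 4.31%, 8.57% in all). Leaving out LAC 0 h replicate 2 gave 2426 calls, while leaving out parental 0 h replicate 4 gave 904, parental 96 h replicate 2 gave 724, LAC 96 h replicate 2 gave 740 and LAC 96 h replicate 3 gave 799. Without LAC 0 h replicate 1, the library with the fewest counts, there were 1245 calls.

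More genes differed between the lines before auxin than after it. At 0 h, LAC and parental cells differed in 3393 genes (15.8% of those tested; 1871 or 8.71% higher and 1522 or 7.08% lower in LAC). At 16 h they differed in 722 genes (3.36%; 266 or 1.24% higher, 456 or 2.12% lower) and at 96 h in 292 (1.36%; 105 or 0.489% higher, 187 or 0.87% lower). These 3 comparisons share no library. They were added after the values were seen. At 16 h the response difference itself was called in 25 genes (0.116%; 16 or 0.0745% higher and 9 or 0.0419% lower). The genes called with a positive response difference had a median LAC minus parental level of -0.95 at 0 h, -0.10 at 16 h and 0.40 at 96 h (log2). In those called with a negative difference the medians were 0.69, 0.14 and -0.18. Over all tested genes they were -0.06, 0.03 and 0.01. The levels at 0 and 96 h are made of the libraries whose response difference chose these genes, so these medians are a description. Both arms changed. Within LAC, 3304 genes were called between 0 and 96 h (15.4%; 1447 or 6.74% higher and 1857 or 8.64% lower), and within the parental line 1671 (7.78%; 847 or 3.94% higher and 824 or 3.84% lower). The median change of the genes called higher was 0.64 in LAC and -0.77 in the parental line, and that of the genes called lower was -0.56 in LAC and 0.33 in parental cells. With the trend removed the lines differed in 4307 genes at 0 h and 553 at 96 h, and in fits to the compared libraries alone in 1317 of 14542 and 708 of 16406.

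**Figure D1:**
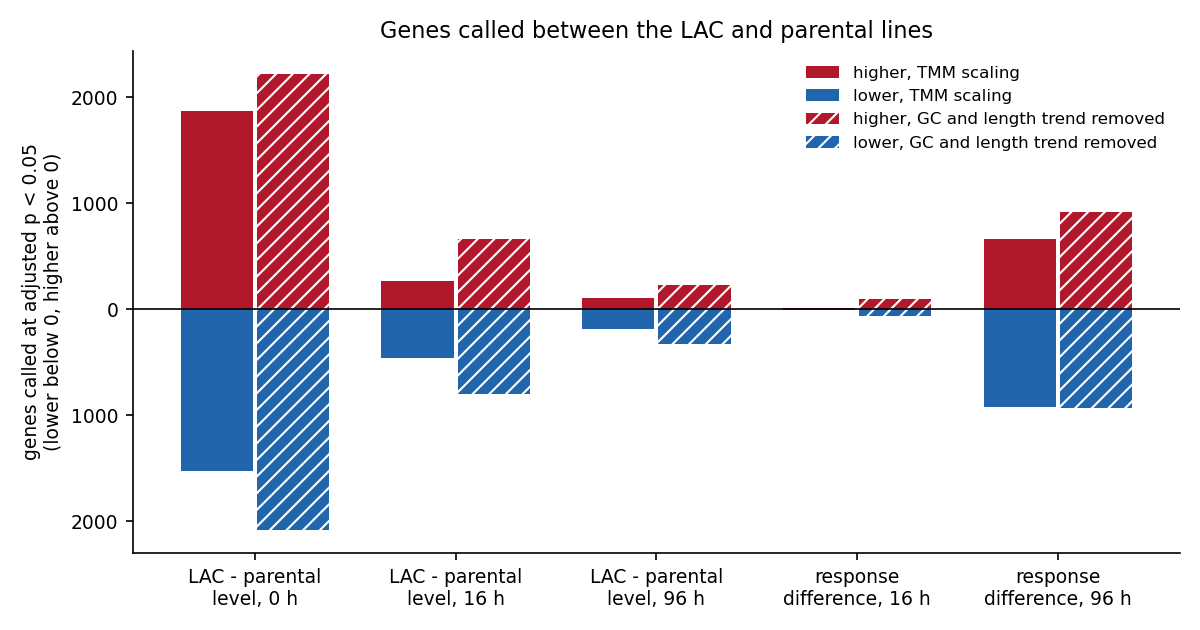
Number of genes called at an adjusted p under 0.05 (y axis; genes higher in LAC or with a positive response difference above 0, lower ones below 0) for the LAC minus parental level at 0, 16 and 96 h and for the response difference at 16 and 96 h, before (plain bars) and after (hatched bars) removal of the GC and length trend. The level comparison falls from 3393 genes at 0 h to 292 at 96 h, and the response difference rises from 25 genes at 16 h to 1589 at 96 h.

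GC content of the gene moved with the response difference. Across the 8657 genes with a mean over 4 on the log2 CPM scale, Spearman's rho between the 2 was -0.63, a description over genes that share the same 16 libraries. The rho was -0.65 for the LAC change, 0.02 for the parental change, 0.49 for the level difference at 0 h and -0.48 for that at 96 h. Of the 282 genes under 35% GC, 19 were called higher and 0 lower. At 65% GC and over, 1 of 555 genes was called higher and 69 lower. With the trend removed, rho for the response difference was -0.04 and these counts became 7 higher and 7 lower under 35%, and 22 higher and 30 lower at 65% and over. The part of the library GC trends in single-gene results was measured by this correction alone.

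**Figure D2:**
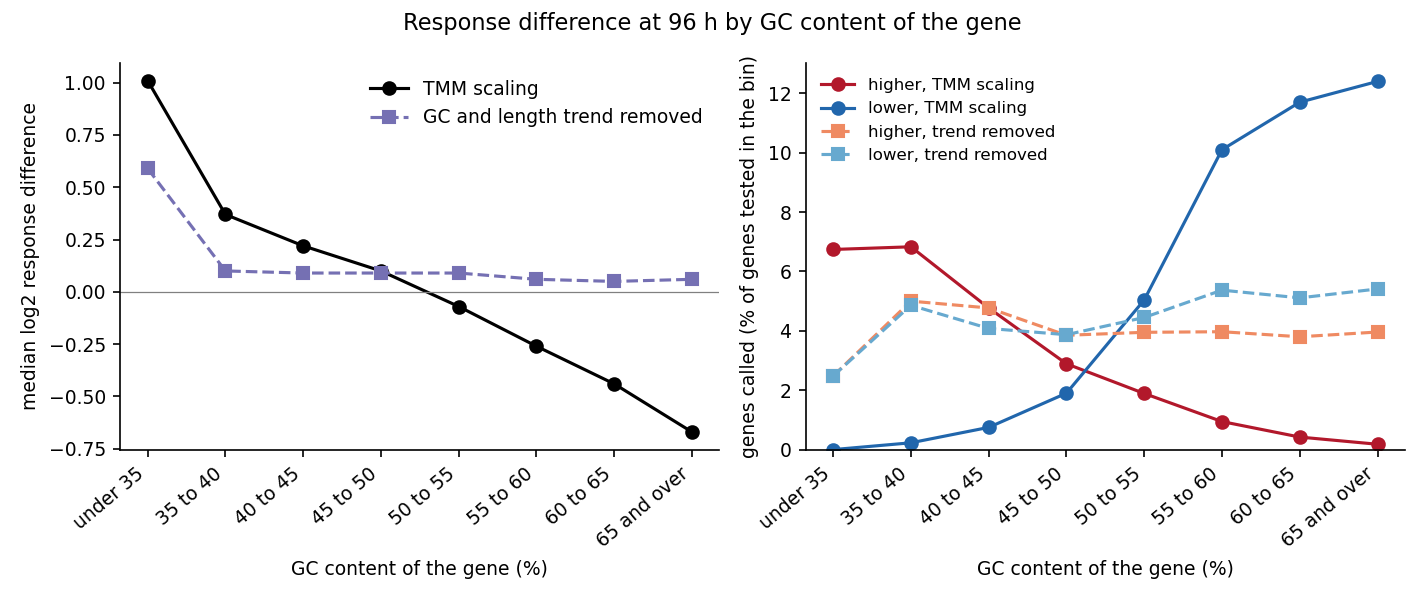
Left, median log2 response difference of all tested genes in 8 bins of gene GC content; right, share of the genes in each bin that were called, in percent. The median goes from 1.01 under 35% GC to -0.67 at 65% and over with TMM scaling (circles) and from 0.59 to 0.06 with the trend removed (squares).

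Of all tested genes, 3.1% were called higher and 4.3% lower, and 4.26% and 4.31% with the trend removed. Among protein-coding genes, 347 were called higher (2.53%) and 893 lower (6.5%) of 13734 tested, and with the trend removed 590 and 897. Of 2023 antisense transcripts, 78 were called higher (3.86%) and 4 lower (0.198%), and 89 and 3 with the trend removed. For long intergenic noncoding RNAs the counts were 58 (4.65%) and 12 (0.962%) of 1247, and for processed pseudogenes 51 (3.51%) and 3 (0.206%) of 1455. In these noncoding classes the lower share was below that of all tested genes, and the higher share was not. Their median mean levels were 0.932 CPM, 0.890 CPM and 0.642 CPM, against 28.6 CPM in protein-coding genes, so these calls rest on few reads. Antisense transcripts and pseudogenes share sequence or position with other genes, and the strand setting and the handling of multiply mapping reads are not given in the sources used here. Chromosome 19, which is gene-dense and GC-rich, had 9 genes called higher (0.718%) and 173 lower (13.8%) of 1254. With the trend removed these were 29 (2.31%) and 94 (7.5%). Genes spanning over 300 kb went the other way, with 47 higher (8.12%) and 5 lower (0.864%) of 579. With the trend removed these were 50 (8.64%) and 15 (2.59%).

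Genes of cholesterol and fatty acid synthesis had more members called with a positive response difference than any other list. This pathway is switched on by SREBP transcription factors, which are held in the endoplasmic reticulum by INSIG proteins while sterols are plentiful. Lamin A has been studied as a binding partner of SREBP1, which makes the pathway a usual one to look at after lamin loss. Of 32 genes tested, 8 were called higher and 0 lower, 25.0% called against 7.4% of all tested genes. The list's median was 0.22, against 0.06 over all tested genes. RLE scaling gave 10 higher, library size alone 12, the trend-removed fit 13, and the fit without libraries under 5000000 counts 8, each with 0 lower. Without the low-count filter, in the compared libraries alone and with limma voom, 1 member was called lower beside 7, 8 and 13 higher. The fits that left out 1 library called 7 to 9 members higher.

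Promoter windows of 7 of the 8 called genes were in the RefSeq table (GRCh38.p14, 250 bases before to 50 after the start). Sequences are shown for the 4 called genes that are described first. Capitals mark CCAAT on either strand (ATTGG on the printed strand), the site of the factor NF-Y. The stretches lie before the start site of the RefSeq table and run 5′ to 3′ on the gene's strand. For INSIG1, STARD4 and HMGCS1 that start lies inside the gene as the deposited counts' coordinates give it. Of these stretches, only that of HMGCS1 overlaps its gene, at the end of the stretch.
SCD: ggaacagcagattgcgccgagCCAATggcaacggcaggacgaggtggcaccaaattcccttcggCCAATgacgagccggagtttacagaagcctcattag
INSIG1: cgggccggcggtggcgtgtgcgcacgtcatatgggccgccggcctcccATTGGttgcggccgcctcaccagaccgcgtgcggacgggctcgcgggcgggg
STARD4: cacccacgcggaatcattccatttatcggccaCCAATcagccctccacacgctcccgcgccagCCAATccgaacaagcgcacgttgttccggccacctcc
HMGCS1: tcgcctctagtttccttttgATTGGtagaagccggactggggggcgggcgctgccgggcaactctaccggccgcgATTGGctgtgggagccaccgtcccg
The stretch of SCD is chr10:100346983-100347082 (+ strand), that of INSIG1 chr7:155297660-155297759 (+), that of STARD4 chr5:111512629-111512728 (-) and that of HMGCS1 chr5:43313488-43313587 (-). CCAAT was in the window of 6 of the 7 called genes (85.7%), of 11 of the 18 members that were not called (61.1%) and of 35.7% of 27305 promoter windows. A sterol regulatory element written as TCACNCCAC, on either strand, was in 0 of the 7 windows, in 1 of the 18 of uncalled members (SREBF2) and in 1.15% of all windows. The match in SREBF2 does not overlap its CCAAT. Only the exact spelling TCACNCCAC was searched for, so a window without a match can still hold a sterol regulatory element of another spelling.

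SCD (chr10:100347233-100364826), the desaturase that makes oleate from stearate, had the smallest adjusted p of the list. Its parental libraries held 950.1, 1221, 1096 and 1163 CPM at 0 h and 955, 999.5, 884 and 838 at 96 h. Its LAC libraries held 303, 518, 432 and 338 at 0 h and 1055, 893, 845 and 940.5 at 96 h. The LAC libraries at 0 h were the low group, with no overlap with any of the other 12 values, and at 96 h the lines overlapped. SCD rose by 1.23 in LAC (log2, adjusted p = 6.04e-08) and changed by -0.27 in the parental line (adjusted p = 0.264). The response difference was 1.50 ± 0.21, or 2.82-fold (adjusted p = 3.65e-05), and 1.48 with the trend removed. For INSIG1 (chr7:155297776-155310235), which retains SREBP in the endoplasmic reticulum and is itself an SREBP target, the parental values were 141, 139.5, 133 and 148 CPM at 0 h and 115, 118, 108 and 98.0 at 96 h. The LAC values were 71.2, 59.9, 44.8 and 33.7 and then 87.0, 83.4, 85.4 and 83.6. LAC 0 h was again below every other library, and at 96 h the LAC libraries were still below the parental ones. INSIG1 rose by 0.71 in LAC (adjusted p = 0.000331), the parental change was -0.36 (adjusted p = 0.0951), and the response difference was 1.07 ± 0.19 (adjusted p = 0.00106).

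STARD4 (chr5:111496033-111512590) encodes a carrier of cholesterol between membranes. It was at 159.6, 142, 152 and 149.8 CPM in the parental libraries at 0 h and 123, 114, 107 and 111 at 96 h, and at 48.9, 91.3, 59.9 and 62.3 in the LAC libraries at 0 h and 101, 121, 122 and 109 at 96 h. LAC 0 h was below every other library, and the lines overlapped at 96 h. The response difference was 1.18 ± 0.20 (adjusted p = 0.000539; 0.91 with the trend removed). An antisense gene, STARD4-AS1, lies on the other strand. HMGCS1 (chr5:43287470-43313512), the synthase that makes HMG-CoA, fell in the parental line by 0.72 (adjusted p = 0.00192) and was not called in LAC (0.23, adjusted p = 0.334). Its values were 234, 266.5, 234 and 240.4 CPM in parental 0 h, 164, 118, 162 and 148 in parental 96 h, 65.1, 151, 119 and 112 in LAC 0 h and 123, 131, 138 and 139 in LAC 96 h. Parental 0 h was the high group, and the other 3 groups overlapped. The response difference of HMGCS1 was 0.96 ± 0.22 (adjusted p = 0.00634). SCD and INSIG1 thus moved mostly in LAC, and HMGCS1 in the parental line. These 4 genes were called in all 16 fits that left out 1 library and under all 9 other settings.

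The other called members were the sterol oxidase MSMO1 (1.03 ± 0.23, adjusted p = 0.00481), HSD17B7 (0.88 ± 0.19, adjusted p = 0.00383), the squalene synthase FDFT1 (0.66 ± 0.16, adjusted p = 0.00758) and the isomerase IDI1 (0.87 ± 0.26, adjusted p = 0.033). IDI1 was not called without parental 0 h replicate 1 or 2, parental 96 h replicate 2, LAC 0 h replicate 1 or 4 or LAC 96 h replicate 2 or 3 (adjusted p up to 0.118). SQLE, the squalene epoxidase (0.40, adjusted p = 0.152), had a positive value without a call. FASN, the fatty acid synthase (-0.97, adjusted p = 0.0634), and the factors SREBF1 (-0.07, 0.924) and SREBF2 (-0.09, 0.899) were not called either. At 0 h, 15 of the 32 genes were lower in LAC than in parental cells and 0 higher. At 16 h the counts were 14 and 0, and at 96 h 1 and 0. Of all tested genes, 7.08% were lower in LAC and 8.71% higher at 0 h. The shares were 2.12% and 1.24% at 16 h, and 0.87% and 0.489% at 96 h, so calls fell over the whole table.

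**Figure D3:**
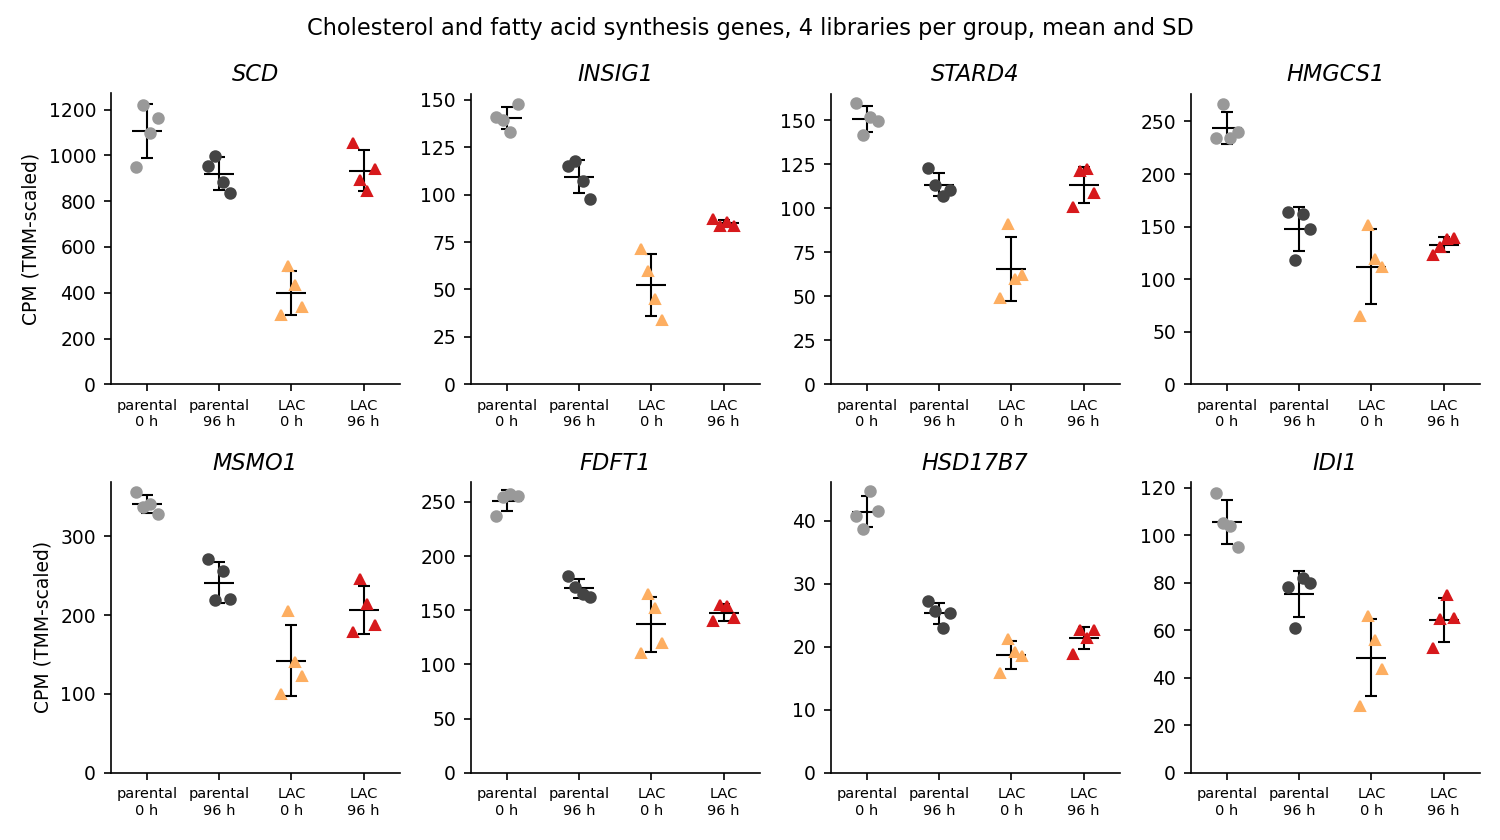
CPM (TMM-scaled, linear axis from 0) of the 8 called genes of cholesterol and fatty acid synthesis in each of the 16 libraries; points are replicates, bars the mean and SD of 4. In each panel LAC 0 h is the lowest group by mean and parental 0 h the highest.

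Among targets of YAP and TEAD, genes were called in both directions. YAP enters the nucleus when cells are spread, tense or sparse and acts with TEAD factors at genes such as CCN1 and CCN2. Of 24 genes of this list tested, 7 were called lower and 1 higher. The list also holds the factors YAP1, WWTR1 and TEAD1 themselves, which were not called. The called share was 33.3%, against 7.4% of all tested genes, and the median was -0.18. The counts were 6 lower and 1 higher with RLE scaling, 4 and 1 with library size alone, where the median was 0.03, and 5 and 1 with the trend removed. Leaving out parental 0 h replicate 4, parental 96 h replicate 2 or LAC 96 h replicate 2 or 3 left 5 called members, and leaving out LAC 0 h replicate 2 gave 9. In LAC itself, 11 of the 24 fell and 0 rose, against 8.64% and 6.74% of all tested genes. In the parental line 5 fell and 2 rose, against 3.84% and 3.94%.

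The promoters of 2 called targets with opposite signs are shown, with the TEAD core GGAATG or its reverse complement CATTCC in capitals, 5′ to 3′ on the gene's strand, before the start site.
CCN2: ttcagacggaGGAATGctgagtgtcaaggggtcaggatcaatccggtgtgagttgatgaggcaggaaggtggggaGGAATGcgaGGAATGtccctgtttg
ANKRD1: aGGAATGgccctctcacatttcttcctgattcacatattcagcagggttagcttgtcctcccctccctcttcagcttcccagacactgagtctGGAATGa
The stretch of CCN2 is chr6:131951452-131951551 (-) and holds 3 matches, and that of ANKRD1 is chr10:90921209-90921308 (-) and holds 2. The core was in the windows of 5 of the 6 called targets in the table (4 of 5 called lower and the 1 called higher). It was in 2 of 11 uncalled members of the list (18.2%), TGFB2 and YAP1, and in 14.0% of all 27305 windows. Matches are a description of the letters in these windows.

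CCN1 (chr1:85580761-85584589), a secreted matricellular protein, was at 190.0, 185, 188.5 and 145 CPM in parental 0 h, 93.8, 104, 109.5 and 98.6 in parental 96 h, 299, 282, 312 and 338 in LAC 0 h and 98.3, 72.8, 71.3 and 78.9 in LAC 96 h. The LAC 0 h libraries were the highest group, above every other library, and the lines overlapped at 96 h. CCN1 fell in both lines, by 1.94 in LAC (adjusted p = 5.27e-12) and by 0.81 in the parental line (adjusted p = 0.00103), and the response difference was -1.13 ± 0.23 (adjusted p = 0.00267). CCN2 (chr6:131948176-131951372), its paralog, held 34.6, 34.2, 35.0 and 29.0 CPM in parental 0 h, 29.9, 27.2, 23.7 and 25.8 in parental 96 h, 35.0, 47.1, 42.1 and 54.6 in LAC 0 h and 20.2, 16.3, 16.6 and 20.8 in LAC 96 h. At 96 h all 4 LAC libraries were below all 4 parental ones. CCN2 fell by 1.29 in LAC (adjusted p = 1.4e-07), with a response difference of -0.98 ± 0.23 (adjusted p = 0.00794).

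ANKRD1 (chr10:90912096-90921087), a nuclear ankyrin repeat protein, was the member called higher although it fell in both lines. Its parental values went from 117, 96.1, 85.9 and 96.7 CPM to 7.27, 7.58, 10.3 and 6.71, and its LAC values from 30.8, 38.1, 31.3 and 40.6 to 7.05, 5.76, 6.57 and 5.36. At 0 h every LAC library was below every parental one, and at 96 h the lines overlapped. ANKRD1 fell by 3.66 in parental cells (adjusted p = 1.54e-19) and fell by 2.51 in LAC (adjusted p = 9.32e-14), and the response difference was 1.14 ± 0.26 (adjusted p = 0.0058). At 0 h LAC cells thus held more CCN1 and less ANKRD1 than parental cells. The kinase genes NUAK2 (-1.12 ± 0.23, adjusted p = 0.00357) and LATS2 (-0.74 ± 0.16, adjusted p = 0.00513) were called lower. NUAK2 rose in the parental line by 0.85 (adjusted p = 0.0008), and LATS2 fell in LAC by 0.71 (adjusted p = 2.51e-05). CCN1, CCN2, ANKRD1, NUAK2 and LATS2 were called in all 16 fits that left out 1 library.

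Actin and its binding proteins, many of them targets of SRF and its actin-sensing coactivators, gave most of their calls without the trend correction. Of 26 genes tested, 6 were called lower and 0 higher (23.1%, against 7.4% of all tested genes), and 2 lower and 1 higher with the trend removed. Library size alone gave 2 lower. Leaving out LAC 96 h replicate 2 or 3 left 2 called, and leaving out LAC 96 h replicate 1 gave 10. ACTB (chr7:5526409-5563902), beta-actin, was at 6141, 5994, 5773 and 5566 CPM in parental 0 h, 4469, 5229, 4149 and 4015 in parental 96 h, 9912, 9734, 9326 and 9426 in LAC 0 h and 5091, 4217, 4195 and 4535 in LAC 96 h. The LAC 0 h values stood above all others. ACTB fell by 1.09 in LAC (adjusted p = 4.6e-08) and by 0.39 in the parental line (adjusted p = 0.0471). Its response difference was -0.70 ± 0.18 (adjusted p = 0.0153), and -0.33 with the trend removed (adjusted p = 0.125), where it was not called, as it was not without the low-count filter.

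FLNA (chrX:154348524-154374634), the actin crosslinker filamin A, held 3223, 4014, 3669 and 3014 CPM in parental 0 h, 2247, 2856, 2422 and 2361 in parental 96 h, 5289, 4493, 5517 and 5344.5 in LAC 0 h and 2611, 1516, 1764 and 2384 in LAC 96 h. LAC 0 h was above every other library. It fell by 1.32 in LAC (adjusted p = 6.43e-07). The response difference of -0.83 ± 0.25 (adjusted p = 0.031) was not called with the trend removed (-0.40, adjusted p = 0.145), with library size alone, or without parental 0 h replicate 4, parental 96 h replicate 2, LAC 0 h replicate 3, or LAC 96 h replicate 2 or 3 (adjusted p up to 0.0969). CNN2, a calponin (-0.76 ± 0.18, adjusted p = 0.00962), and the focal adhesion protein ZYX (-0.84 ± 0.24, adjusted p = 0.0247) were likewise not called with the trend removed (-0.41 and -0.27). ZYX was also not called with library size alone or without parental 96 h replicate 2 or LAC 96 h replicate 2 or 3 (adjusted p up to 0.0651).

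Of 24 genes of integrins and focal adhesions, 2 were called lower and 1 higher (12.5%, against 7.4% of all tested genes). CAVIN1 (chr17:42402449-42423256), a coat protein of caveolae, went from 309, 274, 319 and 251 CPM at 0 h to 147, 232, 147 and 151 at 96 h in parental cells, and from 794, 334, 476 and 429 to 139, 83.0, 98.1 and 131 in LAC cells. LAC held the 4 highest values at 0 h and the 4 lowest at 96 h. The response difference of CAVIN1 was -1.40 ± 0.35 (adjusted p = 0.0108), and -0.93 with the trend removed (adjusted p = 0.00201). TLN1, which encodes talin (-0.88 ± 0.22, adjusted p = 0.013), was called in both fits and in all 16 fits without 1 library. ITGAV, the integrin alpha V chain (0.69 ± 0.20, adjusted p = 0.0275), was called higher, but not with the trend removed (0.31), without the low-count filter, or without parental 0 h replicate 1 or 2, parental 96 h replicate 2, LAC 0 h replicate 1 or LAC 96 h replicate 2 or 3 (adjusted p up to 0.104).

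**Figure D4:**
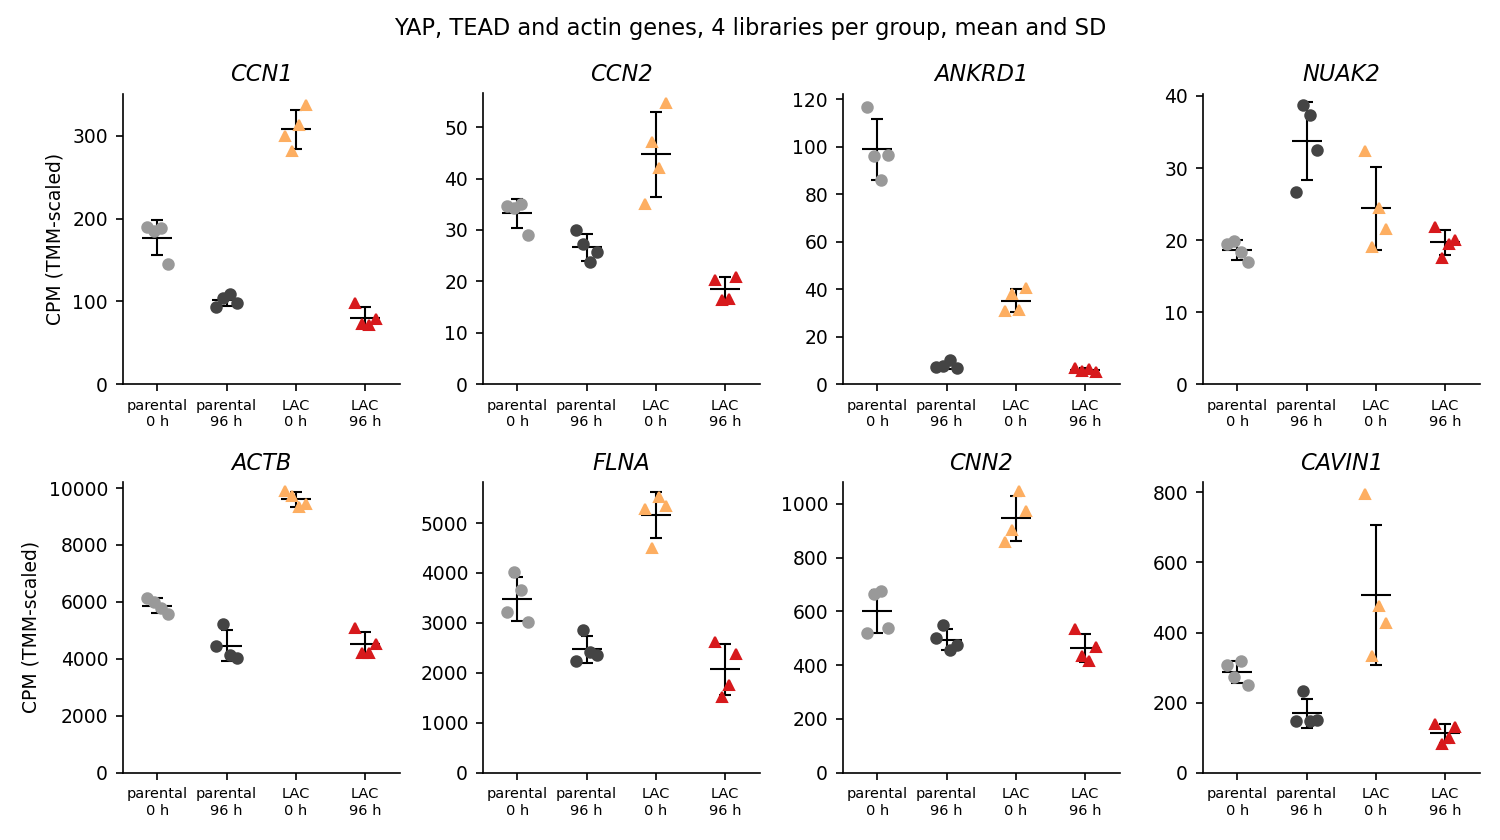
CPM (TMM-scaled, linear axis from 0) of 4 YAP and TEAD targets, 3 actin genes and CAVIN1 in each of the 16 libraries; points are replicates, bars the mean and SD of 4. CCN1, ACTB, FLNA, CNN2 and CAVIN1 are highest by mean in LAC 0 h, ANKRD1 is highest in parental 0 h and NUAK2 in parental 96 h.

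Immediate early genes, whose transcription follows growth factor and stress signals within minutes, gave calls in 1 direction. Of 20 genes tested, 7 were called lower and 0 higher (35.0%, against 7.4% of all tested genes), and 18 of the 20 values were below 0. The median was -0.79, and -0.33 with the trend removed, where 5 were called lower. The count went from 5, without LAC 96 h replicate 2 or 3, to 11, without LAC 0 h replicate 2. In the parental line 6 of the 20 rose with auxin and 1 fell, against 3.94% and 3.84% of all tested genes. In LAC 2 rose and 4 fell, against 6.74% and 8.64%.

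EGR1 (chr5:138465479-138469303), a zinc finger factor, was at 189.5, 189, 209 and 186 CPM in parental 0 h, 534, 691, 620.1 and 611 in parental 96 h, 216, 165, 202 and 196 in LAC 0 h and 390.2, 249, 299 and 348.5 in LAC 96 h. The lines overlapped at 0 h, and at 96 h every parental library was above every LAC library. EGR1 rose in both, by 1.67 in the parental line (adjusted p = 8.01e-10) and by 0.73 in LAC (adjusted p = 0.00123), and the response difference was -0.94 ± 0.22 (adjusted p = 0.00877; -0.68 with the trend removed). FOS (chr14:75278826-75282230), a subunit of AP-1, had 24.4, 22.2, 25.6 and 33.1 CPM in parental 0 h, 78.0, 83.1, 77.0 and 85.7 in parental 96 h, 22.0, 18.0, 21.4 and 21.6 in LAC 0 h and 38.7, 28.8, 37.8 and 40.2 in LAC 96 h. At each time every LAC library was below every parental one. It also rose in both lines, by 1.64 and 0.82 (adjusted p = 5.02e-09 and 0.000723). Its response difference of -0.82 ± 0.24 (adjusted p = 0.0298) was not called with the trend removed (-0.51, adjusted p = 0.171), with library size alone, nor without parental 0 h replicate 2 or LAC 96 h replicate 2 or 3 (adjusted p up to 0.0852).

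MYC (chr8:127735434-127742951), which drives ribosome production and growth, held 61.0, 76.4, 75.9 and 72.3 CPM in parental 0 h, 126, 155, 155 and 155 in parental 96 h, 147, 116, 132 and 127 in LAC 0 h and 172, 144, 152 and 164 in LAC 96 h. The parental 0 h libraries were the low group and did not overlap with the others. MYC rose by 1.05 in the parental line (adjusted p = 3.79e-08) and was not called in LAC (0.28, adjusted p = 0.103). The response difference was -0.77 ± 0.17 (adjusted p = 0.00443; -0.46 with the trend removed, adjusted p = 0.0345). NR4A1, a nuclear receptor (-1.02 ± 0.24, adjusted p = 0.00758), and EGR3 (-1.50 ± 0.38, adjusted p = 0.0135) were also called, and EGR1, MYC, NR4A1 and EGR3 were called in all 16 fits without 1 library.

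Of 20 genes of secretory and absorptive differentiation tested, 2 were called lower and 0 higher (10.0%, against 7.4% of all tested genes). CDX2 (chr13:27960918-27969315), the homeobox factor that sets intestinal identity, was at 89.0, 84.2, 107 and 74.4 CPM in parental 0 h, 198, 248, 196 and 195 in parental 96 h, 118, 123, 126 and 139 in LAC 0 h and 144, 107, 129.9 and 133 in LAC 96 h. Parental cells went from the lowest to the highest of the 4 groups by mean, and the LAC groups overlapped. CDX2 rose by 1.24 in the parental line (adjusted p = 5.02e-09) against 0.02 in LAC (adjusted p = 0.954), and the response difference was -1.22 ± 0.18 (adjusted p = 7.48e-05; -0.94 with the trend removed, adjusted p = 4.48e-06). HNF4A, an enterocyte and liver factor, fell in LAC by 0.69 (adjusted p = 1.76e-05). Its response difference was -0.62 ± 0.16 (adjusted p = 0.0125), and -0.36 with the trend removed (adjusted p = 0.0515), where it was not called, as it was not with library size alone or without the low-count filter. The other 18 members had no call.

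Auxin itself can reach the aryl hydrocarbon receptor, and the genes of this receptor's pathway split in the response difference. Of 14 tested, 2 were called lower and 1 higher (21.4%, against 7.4% of all tested genes). The 14 are not all targets, as they include AHR, ARNT and NFE2L2, which were not called. CYP1B1 (-0.27, adjusted p = 0.393), TIPARP (-0.05, 0.926) and AHRR (0.10, 0.917) were also among the 11 members not called. CYP1B1 rose by 1.05 in the parental line and by 0.78 in LAC. CYP1A1 (chr15:74719542-74725536), the best-known target, was at 2.44, 1.82, 0.897 and 2.90 CPM in parental 0 h, 12.7, 15.7, 10.5 and 17.4 in parental 96 h, 3.24, 2.96, 3.65 and 4.68 in LAC 0 h and 8.50, 6.43, 7.54 and 7.63 in LAC 96 h. CYP1A1 rose in both lines with no overlap between the times, by 2.84 in the parental line (adjusted p = 2.38e-10) and 1.05 in LAC (adjusted p = 0.00135). At 0 h the LAC libraries were the higher ones (LAC minus parental 0.88, adjusted p = 0.0359). At 96 h the parental libraries were the higher ones (-0.91, adjusted p = 0.00647). The response difference was -1.79 ± 0.36 (adjusted p = 0.00233; -1.60 with the trend removed). NQO1 (chr16:69706996-69726668), a quinone reductase shared with the NRF2 pathway, went from 324, 342, 325 and 307 CPM to 457, 411, 351 and 381 in parental cells and from 106, 168, 152 and 165 to 276, 320.1, 311 and 298 in LAC cells. LAC 0 h was the low group, and at 96 h LAC was still below the parental line. It rose by 1.02 in LAC (adjusted p = 1.03e-07), and the response difference was 0.72 ± 0.18 (adjusted p = 0.0103). SLC7A5, an amino acid transporter (-0.83 ± 0.26, adjusted p = 0.0367), was not called with the trend removed (-0.45), with library size alone, or without parental 0 h replicate 4, parental 96 h replicate 2, LAC 0 h replicate 3, or LAC 96 h replicate 2 or 3 (adjusted p up to 0.0963).

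The list of ATF4 targets and the unfolded protein response had calls in both directions. ATF4 is translated when amino acids are short or the endoplasmic reticulum is stressed, and it switches on transporters and enzymes of amino acid synthesis. Chaperones of the endoplasmic reticulum answer to other factors. Of 29 tested, 6 were called higher and 2 lower (27.6%, against 7.4% of all tested genes), and 11 higher and 3 lower with the trend removed. The higher ones were SLC7A11, ASNS, DDIT4, VLDLR, MTHFD2 and PSAT1, and the lower ones the chaperone CALR and CRELD2. The 21 members not called included ATF4 itself (0.01, adjusted p = 0.98), DDIT3 (0.83, 0.084), SLC3A2 (-0.40, 0.379) and the chaperone HSPA5 (-0.40, 0.189). The fits that left out 1 library gave 4 called members without parental 96 h replicate 2, LAC 0 h replicate 1 or LAC 96 h replicate 3, and 11 without LAC 0 h replicate 2.

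SLC7A11 (chr4:138164097-138242349), the cystine transporter that feeds glutathione synthesis, was at 204, 220.1, 174 and 186 CPM in parental 0 h, 167, 134, 145 and 143 in parental 96 h, 71.5, 126, 88.0 and 99.9 in LAC 0 h and 165, 183, 169 and 166 in LAC 96 h. LAC 0 h was the low group, below every other library. It rose by 0.81 in LAC (adjusted p = 5.57e-05), the parental change was -0.41 (adjusted p = 0.055), and the response difference was 1.23 ± 0.20 (adjusted p = 0.000339; 0.81 with the trend removed). An antisense gene, SLC7A11-AS1, overlaps it. ASNS (chr7:97851677-97872542), the asparagine synthetase, held 13.8, 11.6, 11.1 and 9.91 CPM in parental 0 h, 3.84, 4.39, 3.92 and 5.70 in parental 96 h, 3.24, 4.36, 4.29 and 3.70 in LAC 0 h and 3.69, 5.81, 5.32 and 3.37 in LAC 96 h. Parental 0 h was the single high group. It fell in the parental line by 1.38 (adjusted p = 3.87e-05) and was not called in LAC (0.20), with a response difference of 1.57 ± 0.31 (adjusted p = 0.0022).

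DDIT4 (chr10:72273919-72276036), an inhibitor of mTORC1, followed the same course: 219, 180.4, 246 and 232.5 CPM in parental 0 h, 96.0, 164, 108 and 104 in parental 96 h, 157, 66.5, 104 and 82.6 in LAC 0 h and 116, 112, 124 and 132 in LAC 96 h. Parental 0 h was above every other library. For DDIT4 the response difference was 1.15 ± 0.31 (adjusted p = 0.018) and 1.69 with the trend removed (adjusted p = 6.58e-09). CALR (chr19:12938578-12944489), calreticulin, had the opposite sign. It was at 883, 744.5, 853 and 734 CPM in parental 0 h, 868, 1064, 819 and 759 in parental 96 h, 1903, 1292, 1319.7 and 1349 in LAC 0 h and 870.5, 797, 771 and 789 in LAC 96 h, with LAC 0 h above every other library. It fell by 0.86 in LAC (adjusted p = 9.88e-05). Its response difference was -0.99 ± 0.22 (adjusted p = 0.00456; -0.71 with the trend removed). SLC7A11, ASNS, DDIT4 and CALR were called in all 16 fits without 1 library.

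Transcripts of the mitochondrial genome spread widely between replicates. All 13 tested values were below 0, 6 were called lower (46.2%), and the median was -1.33. The counts were 3 with RLE scaling, 1 with library size alone and 10 with the trend removed. Leaving out parental 96 h replicate 3 or 4, LAC 0 h replicate 3 or LAC 96 h replicate 3 left 1 called, and leaving out parental 0 h replicate 1 gave 10. MT-CO2, a subunit of cytochrome c oxidase, held 640.0, 326, 382 and 438 CPM in parental 0 h, 263, 622, 910.5 and 809 in parental 96 h, 546, 459, 808 and 664.5 in LAC 0 h and 393, 308, 315 and 342 in LAC 96 h. The parental values at 96 h enclosed those at 0 h, and the 4 LAC libraries at 96 h were all below the 4 at 0 h. Its response difference was -1.41 ± 0.38 (adjusted p = 0.0184), called in all 16 fits without 1 library. The next in the list, MT-CYB (-1.45 ± 0.42, adjusted p = 0.0261), lost its call without parental 96 h replicate 3 or 4, LAC 0 h replicate 3 or LAC 96 h replicate 3 (adjusted p up to 0.073). MT-ND2 (-1.44 ± 0.43, adjusted p = 0.0303) and MT-ND5 (-1.41 ± 0.42, adjusted p = 0.0307) were each called in 7 of the 16 fits, MT-ND2 not without parental 0 h replicate 2, 3 or 4, parental 96 h replicate 3 or 4, LAC 0 h replicate 3 or LAC 96 h replicate 2, 3 or 4 and MT-ND5 not without parental 0 h replicate 2 or 3, parental 96 h replicate 2, 3 or 4, LAC 0 h replicate 3 or LAC 96 h replicate 2, 3 or 4. Mitochondrial counts were 0.751%, 1.26%, 2.53% and 1.94% of all counts in parental 96 h replicates 1 to 4 and 0.908% to 0.958% in LAC 96 h. Of 71 nuclear genes of the respiratory chain, 3 were called lower and 1 higher (5.63%, against 7.4% of all tested genes).

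Proteins of the nuclear envelope that work with the lamins were called in both directions. Of 19 genes of the inner nuclear membrane and the LINC complex, which links the lamina to the cytoskeleton, 2 were called lower and 1 higher (15.8%, against 7.4% of all tested genes). TMEM201 (chr1:9588911-9614877), a protein of the inner membrane known as Samp1, was at 57.3, 51.3, 66.5 and 55.6 CPM in parental 0 h, 93.4, 133, 109 and 106 in parental 96 h, 186, 109, 128 and 126 in LAC 0 h and 130.4, 104, 105 and 116 in LAC 96 h. The parental 0 h libraries were below the other 3 groups. It rose in the parental line by 0.94 (adjusted p = 0.00103), with a response difference of -1.20 ± 0.26 (adjusted p = 0.00481; -0.66 with the trend removed). SYNE3, a nesprin, fell in both lines and was called higher (1.06 ± 0.33, adjusted p = 0.0368), but not without parental 0 h replicate 1 or 2, parental 96 h replicate 2, 3 or 4, LAC 0 h replicate 2 or LAC 96 h replicate 1 or 4 (adjusted p up to 0.107). EMD, which encodes emerin, a direct partner of Lamin A, was called lower (-0.59 ± 0.19, adjusted p = 0.0471), but not with RLE scaling, library size alone, no low-count filter or the trend removed (-0.23), nor without parental 0 h replicate 2 or 4, parental 96 h replicate 2, 3 or 4, LAC 0 h replicate 3 or LAC 96 h replicate 2, 3 or 4. Of 31 genes of the nuclear pore, SEC13 (-0.66 ± 0.15, adjusted p = 0.00517) and POM121 (-0.88 ± 0.21, adjusted p = 0.00956) were called lower and 0 higher (6.45%).

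Of 24 heterochromatin genes, 3 were called lower and 0 higher (12.5%, against 7.4% of all tested genes), and 7 and 0 with the trend removed. They were EHMT2, an H3K9 methyltransferase (-0.92 ± 0.24, adjusted p = 0.0167), the corepressor TRIM28 (-0.93 ± 0.25, adjusted p = 0.02) and UHRF1, which keeps DNA methylation through replication (-0.79 ± 0.23, adjusted p = 0.0255). Without LAC 96 h replicate 2 all 3 lost the call, as did TRIM28 without parental 96 h replicate 2 and UHRF1 without parental 0 h replicate 4, parental 96 h replicate 2 or LAC 96 h replicate 3. Of 38 DNA replication genes, 5 were called lower and 1 higher (15.8%), and with the trend removed 2 and 0. TK1 (-0.73 ± 0.20, adjusted p = 0.0211) was called in all 16 fits without 1 library, but not with the trend removed (-0.23), and leaving out parental 0 h replicate 4 or LAC 96 h replicate 2 left 1 member called. MCM2, GINS4 and FEN1 (-0.73, -0.64 and -0.63, adjusted p = 0.0238, 0.0261 and 0.0359) were the next. With the trend removed MCM2 and FEN1 were not called (adjusted p = 0.0669 and 0.0738). The 2 called there were GINS4 (adjusted p = 0.0499) and RFC1 (adjusted p = 0.0283), and RFC1 was not called before the correction. Of 34 mitosis genes, CDC20 (-0.49 ± 0.15, adjusted p = 0.0415) was called lower (2.94% of the list), but it was not called with the trend removed or without parental 0 h replicate 4, parental 96 h replicate 1 or 2, LAC 0 h replicate 2 or 3 or LAC 96 h replicate 2, 3 or 4. Other members of this list were called with the trend removed, 4 lower (CENPF, KIF11, MKI67 and TPX2), and limma voom called 8 lower and 1 higher. Of 42 replication-dependent histone genes 0 were called, and 0 under each of the 9 other settings, DESeq2 and limma voom among them.

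In 78 genes of cytosolic ribosomal proteins the median was -0.32 and 68 values were below 0, but only 3 were called lower (3.85%), among them RPL28 (-0.63 ± 0.19, adjusted p = 0.0381) and RPL14 (-0.63 ± 0.20, adjusted p = 0.0468), and 0 with RLE scaling, library size alone or the trend removed. Of 15 WNT feedback targets, AXIN2 (-0.70 ± 0.20, adjusted p = 0.026) and BAMBI (-0.83 ± 0.23, adjusted p = 0.0238) were called lower (13.3%). With library size alone 0 were called, and 0 without parental 96 h replicate 2 or LAC 96 h replicate 2 or 3. AXIN2 was not called with the trend removed (-0.42, adjusted p = 0.0561). Of 23 p53 targets, CDKN1A, the cell cycle inhibitor p21, was called higher (0.84 ± 0.25, adjusted p = 0.0299, and 1.23 with the trend removed). AEN was called lower (-0.67 ± 0.20, adjusted p = 0.0309). The called share of 8.70% was near the 7.4% of all tested genes. CDKN1A fell in the parental line by 1.13 (adjusted p = 2.66e-05). Without parental 0 h replicate 4 or LAC 96 h replicate 2, 0 of the p53 targets were called. Of 30 interferon-stimulated genes, OAS1 (1.09 ± 0.31, adjusted p = 0.0238) was called higher (3.33%), and 0 without parental 0 h replicate 4, parental 96 h replicate 2 or LAC 96 h replicate 2. Of 13 intermediate filament genes, PLEC, the crosslinker plectin (-1.48 ± 0.39, adjusted p = 0.0159), was called lower and KRT81 (1.65 ± 0.53, adjusted p = 0.0466) higher (15.4%), and 0 without LAC 96 h replicate 2.

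**Figure D5:**
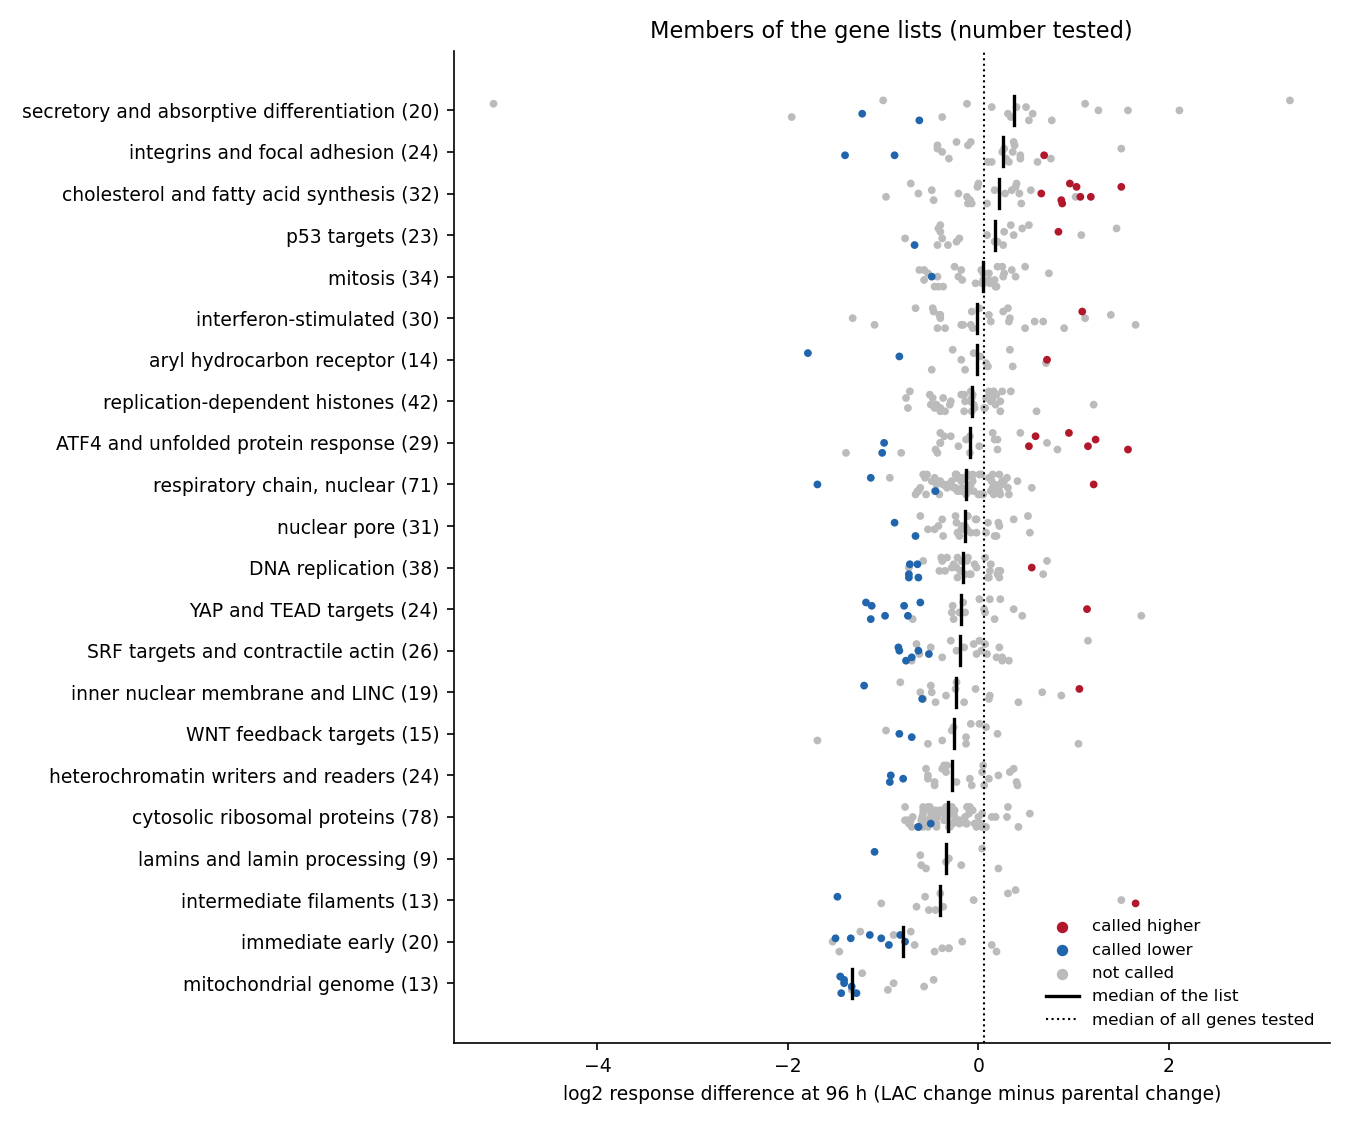
Log2 response difference at 96 h (x axis) of each tested member of 22 gene lists (rows, ordered by median; number tested in brackets); red points were called higher, blue lower, grey not called, black bars are list medians and the dotted line the median of all tested genes, 0.06. The mitochondrial genome (median -1.33) and immediate early genes (-0.79) lie lowest, and the 8 red points of cholesterol and fatty acid synthesis lie between 0.66 and 1.50.

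By size and level, 935 called genes had a symbol, a mean of at least 1 CPM in at least 1 group and the same call with the trend removed. Of these, 177 rose in LAC and 273 fell in LAC without overlap between its replicates, while in 131 and 111 the parental line moved and LAC was not called. Among the largest differences in those that rose in LAC were 5 genes at low levels, namely SPATA1 (3.42), LINC00456 (3.35), FGD5 (3.14), the sterol exporter ABCG1 (3.11) and ST8SIA1 (2.83), all under 4 CPM in each of the 16 libraries. In LAC 0 h replicate 1, where all 5 were at 0, 3 counts are 0.904 CPM. SPATA1 and LINC00456 were called in all 16 fits without 1 library, ST8SIA1 in 13 (not without parental 0 h replicate 2, LAC 0 h replicate 4 or LAC 96 h replicate 3), ABCG1 in 7 (not without parental 0 h replicate 2, parental 96 h replicate 2, 3 or 4, LAC 0 h replicate 1 or 4 or LAC 96 h replicate 1, 2 or 3) and FGD5 in 6 (not without parental 0 h replicate 3 or 4, parental 96 h replicate 2 or 4, LAC 0 h replicate 1, 2 or 3 or LAC 96 h replicate 2, 3 or 4).

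The 6 genes with the largest fall led by LAC were the pseudogenes YBX1P1 (-4.11) and RPL22P1 (-3.31), the galanin receptor GALR2 (-3.93), MIR320A (-3.53), DOHH (-1.83) and the placental phosphatase ALPP (-1.79). GALR2 (chr17:76074781-76077537) was at 0.609, 0.248, 0.179 and 0.242 CPM in parental 0 h, 1.31, 1.70, 1.43 and 1.38 in parental 96 h, 4.21, 2.22, 3.18 and 3.47 in LAC 0 h and 0.888, 1.29, 0.417 and 0.954 in LAC 96 h, and its groups did not overlap between the times in either line. Genes in which the parental line led were, upwards, the pseudogenes HERC2P2 (4.67), RPS4XP6 (3.61) and ARL4AP4 (3.18) and the intronic transcript ACAP2-IT1 (3.49), and downwards P2RY11 (-1.79), NAT8L (-1.76), EGR3 (-1.50) and FKBPL (-1.34). Reads of processed pseudogenes can come from their parent genes, so these values are uncertain. Several of the largest values also rest on few reads. In LAC 96 h, YBX1P1 was at 0.0934, 0.0559, 0.139 and 0 CPM and MIR320A at 0.14, 0.112, 0.139 and 0.367 CPM. In parental 96 h, HERC2P2 was at 0.245, 0, 0 and 0.551 CPM. YBX1P1 was not called without parental 0 h replicate 4, parental 96 h replicate 3 or LAC 96 h replicate 2 or 4, DOHH not without parental 0 h replicate 2 or 4, parental 96 h replicate 2, LAC 0 h replicate 1 or LAC 96 h replicate 2 or 3, HERC2P2 not without parental 0 h replicate 4, parental 96 h replicate 2 or LAC 96 h replicate 3 and RPS4XP6 not without parental 0 h replicate 1 or 2, parental 96 h replicate 1, 2, 3 or 4, LAC 0 h replicate 1 or 4 or LAC 96 h replicate 2, 3 or 4. The other 10 genes were called in all 16 fits without 1 library.

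Among abundant protein-coding genes (mean of at least 20 CPM, a rule added after the values were seen), 130 of 7912 were called higher (1.64%) and 492 lower (6.22%) in both fits. Of all tested genes, 1.87% and 2.48% were called in both fits with a symbol and at least 1 CPM. The 12 of each direction with the smallest adjusted p were called in all 16 fits without 1 library and under all 9 other settings. Besides SCD, SLC7A11, STARD4 and INSIG1, the higher ones were S100P (1.58), N4BP2L2 (1.22), the conjugate exporter ABCC3 (1.12), the polyamine acetyltransferase SAT1 (1.09), YPEL5 (1.08), FANCL (1.28), CYBRD1 (1.30) and TUBE1 (1.23). S100P (chr4:6693878-6697170), a calcium-binding protein, rose in both lines. It went from 65.7, 42.3, 61.2 and 59.7 CPM to 82.6, 101, 79.9 and 73.2 in parental cells and from 12.9, 21.0, 22.6 and 20.4 to 91.8, 93.6, 83.9 and 78.9 in LAC cells, which started below every parental library and overlapped with them at 96 h. For S100P the response difference was 1.58 ± 0.23 (adjusted p = 7.48e-05; 1.72 with the trend removed).

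Besides CDX2, the lower ones were HGH1 (-1.25), ISG20L2 (-0.99), SETD1B (-1.18), SRM (-1.21), MAGED1 (-0.99), NANOS1 (-1.45), RRP12 (-1.29), MYBBP1A (-1.20), GOLGA3 (-1.10), DIDO1 (-0.96) and CCDC86 (-1.13). ISG20L2, RRP12, MYBBP1A and CCDC86 are nucleolar proteins. SRM (chr1:11054584-11060020), the spermidine synthase, was at 90.7, 88.9, 89.0 and 76.4 CPM in parental 0 h, 129.7, 180.5, 136 and 136 in parental 96 h, 287, 202, 196 and 202 in LAC 0 h and 176, 154, 149.9 and 165 in LAC 96 h. The lines were apart at 0 h, with LAC higher, and overlapped at 96 h. It rose in the parental line by 0.75 (adjusted p = 0.000913) and fell in LAC by 0.45 (adjusted p = 0.0293), with a response difference of -1.21 ± 0.21 (adjusted p = 0.000805) and -0.63 with the trend removed (adjusted p = 0.00884).

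The LAC change was also set against that of the other degron lines, comparisons that share the LAC libraries with the response difference above but no parental library. Each rests on 15 libraries, with replicates 1 to 3 only in LB1 0 h and LB2 96 h. Among the LB libraries used, LB1 0 h replicate 2 (1452968 counts) and LB2 0 h replicates 1 (1894447) and 4 (3724709) were under 5000000 counts. Against LB1, 216 genes were called (1.01% of those tested; 154 or 0.717% higher and 62 or 0.289% lower), and against LB2, 105 (0.489%; 36 or 0.168% higher and 69 or 0.321% lower). In the fits to the compared libraries alone the counts were 68 and 0, with 1586 genes at an unadjusted p under 0.05 in the latter, and DESeq2 called 516 and 545. Of the 32 genes of cholesterol and fatty acid synthesis, 6 were called higher against LB1 and 4 against LB2, and 0 lower. SCD differed by 1.84 from LB1 (adjusted p = 2.36e-07) and by 0.88 from LB2 (adjusted p = 0.0417), INSIG1 by 1.17 (0.000517) and 1.14 (0.0047), and STARD4 by 0.94 (0.011) and 1.19 (0.00392). SLC7A11 differed by 2.09 from LB1 (adjusted p = 2.87e-09) and 1.25 from LB2 (adjusted p = 0.00144). CYP1A1 differed from LB1 by -2.09 (adjusted p = 0.000322) and was not called against LB2 (-0.66, adjusted p = 0.451).

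Of all tested genes, 0.717% were called higher and 0.289% lower against LB1, and 0.168% and 0.321% against LB2. Of the 29 genes of ATF4 targets and the unfolded protein response, 7 were called higher against LB1 and 2 against LB2, and 0 lower. Of the 24 genes of the YAP and TEAD list, 2 were called higher against LB1 and 0 against LB2. CCN1 differed by -0.37 from LB1 (adjusted p = 0.515) and -0.15 from LB2 (adjusted p = 0.86). CDX2 differed by -0.58 (adjusted p = 0.135) from LB1 and by -0.75 (adjusted p = 0.0487) from LB2, where it was called lower. Of the mitochondrial transcripts, 7 of 13 were called lower against LB1 and 0 against LB2, with medians of -1.70 and -1.46. The gene for Lamin B2 was called against neither line (-0.13 and -0.85).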

How the data were processed

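RNA was sequenced as stranded, rRNA-depleted total RNA, paired-end. The deposited table holds counts per gene, made by the authors with featureCounts 1.6.4 in nf-core/rnaseq 1.4.2, per the file headers. STAR 2.7.10a and build GRCh38 are named in the submitters' processing notes. The strand setting, the handling of multiply mapping reads and the annotation release are not given in the sources used here. All 46 count columns matched a library, and 1 gene broken over 3 lines was left out. One edgeR 4.0.16 quasi-likelihood model (R 4.3.3) with 12 group coefficients was fitted to the 46 libraries, with TMM scaling, filterByExpr and Benjamini-Hochberg adjustment over 21484 genes. CPM are TMM-scaled. Intervals of spread cover wells of 1 line, which may be technical. The 16 libraries held 3318819 to 29739484 counts, so 3 counts are 0.101 to 0.904 CPM.

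The settings tried instead were RLE scaling, scaling by library size only, testing without the low-count filter, DESeq2 1.42.0, limma 3.58.1 voom with sample weights, the compared libraries only, a replicate block, removal of a smooth trend over GC and length (5 degrees of freedom each), leaving out libraries under 5000000 counts and leaving out each library. Scripts were tested on simulated data. The contrast and the gene lists were chosen with earlier results of these data known. Genes named outside the lists had to be called with and without the trend, have a symbol and reach 1 CPM in a group. The 6 largest differences per direction were taken where LAC changed without overlap between times. A further 4 per direction were taken where the parental line did so and the LAC change was not called. From each list the 4 called genes with the smallest adjusted p were eligible. A few genes are not reported here by name. The level comparisons between lines at 0, 16 and 96 h and the rule for abundant genes (mean of at least 20 CPM) were added after seeing the data. No 2 replicates agreed within sampling noise.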

Additional observations from a re-analysis of the deposited data

Results flagged for a closer look

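The change over 96 h differed between LAC and parental cells in 1589 genes, between LAC and LB1 in 216 and between LAC and LB2 in 105, each by the test of the difference itself. At 16 h, a time that the main comparison does not use, the same difference between LAC and parental cells was called in 25 genes, 16 higher and 9 lower, and the unadjusted p was under 0.05 in 2651.

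Single libraries lay far from the other 3 of their group by Dixon's test, which by chance marks about 5% of groups. Parental 96 h replicate 2 was high for LMNA (758 CPM), CAVIN1 (232.4 CPM), CDX2 (247.7 CPM) and SRM (180.5 CPM). Parental 0 h replicate 4 was low for CCN1 (145 CPM), CCN2 (29 CPM) and SRM (76.4 CPM). LAC 0 h replicate 1 was high for CALR (1902.8 CPM) and SRM (286.8 CPM). The remaining ones were MYC in parental 96 h replicate 1 (125.8 CPM, low), EGR1 in parental 0 h replicate 3 (209.3 CPM, high), FOS in LAC 0 h replicate 2 (18 CPM, low) and GALR2 in parental 0 h replicate 1 (0.609 CPM, high). Parental 96 h replicate 2 and LAC 0 h replicate 1 are also, of the 16 compared, the libraries with the highest rho with GC content, 0.63 and 0.73, and the part of this in these values was not tested.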

How the results depend on the processing

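The 1589 calls became 3055 with limma voom, and 724 (without parental 96 h replicate 2) to 2426 (without LAC 0 h replicate 2) when 1 library was left out. The 665 higher calls became 1408 with library size only, 1123 with DESeq2 and 1336 with limma voom, and 270 to 854 without 1 library. The 924 lower calls became 355 with library size only and 1719 with limma voom, and 380 (without LAC 96 h replicate 2) to 1572 (without LAC 0 h replicate 2) without 1 library. The 216 calls against LB1 became 516 with DESeq2, 1441 with limma voom, 68 in the compared libraries only and 508 with the trend removed, and 69 (without LB1 0 h replicate 3) to 720 (without LAC 0 h replicate 2) without 1 library. The 105 calls against LB2 became 178 with RLE scaling, 164 with library size only, 545 with DESeq2, 3241 with limma voom, 0 in the compared libraries only, 483 with the trend removed and 755 without libraries under 5000000 counts, and 7 (without LB2 96 h replicate 3) to 1087 (without LB2 0 h replicate 1) without 1 library. The 3393 genes at 0 h became 1317 in the compared libraries only, and 2462 to 3778 without 1 library. The 292 genes at 96 h became 1118 with limma voom, 708 in the compared libraries only, 553 with the trend removed and 781 without libraries under 5000000 counts, and 172 (without parental 96 h replicate 2) to 285 without 1 library. Fewer samples and genes enter the fit in the compared libraries only. The cause of these shifts was not tested for any setting.

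The response difference of LMNA, -0.31 and not called, was 0.09 with limma voom, 0.26 with the trend removed, 0.13 without libraries under 5000000 counts and from -0.50 (without LAC 0 h replicate 2) to 0.09 (without LAC 0 h replicate 1) without 1 library. Of 119 named genes that were called, 65 were called in all 16 fits without 1 library and 68 under all 9 other settings. With library size only 34 lost the call, without the low-count filter 28 and with the trend removed 27. Leaving out LAC 96 h replicate 2 lost 49, LAC 96 h replicate 3 lost 44 and parental 96 h replicate 2 lost 42. The number of wells and the few counts of low genes limit the precision.

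The libraries share only replicate numbers. Of 24 same-numbered pairs, 9 had a correlation of deviations over 0.1 (range -0.71 to 0.65), and 7 of 16 libraries correlated best with their own number. With the replicate number as a block there were 1716 calls (701 higher and 1015 lower), 267 against LB1 and 122 against LB2.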

Other observations

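The level difference between the lines was also followed through 16 h in single genes. The LAC minus parental level of SCD was -1.48, -1.23 and 0.02 at 0, 16 and 96 h (log2), and that of INSIG1 -1.44, -1.23 and -0.37. These sterol genes were still low in LAC at 16 h (adjusted p = 3.94e-08 and 5.24e-09 in edgeR's quasi-likelihood test). SLC7A11 was at -1.01, 0.26 and 0.21, and was not called at 16 h (adjusted p = 0.417). ANKRD1 was at -1.48, 0.66 and -0.33 (adjusted p = 0.0217 at 16 h). CCN1 was higher in LAC by 0.80 at 0 h and 1.76 at 16 h (adjusted p = 5.05e-11), against -0.34 at 96 h. CDX2 was at 0.52, -0.47 and -0.70 (adjusted p = 0.0217 at 16 h). Of the 24 genes of the YAP and TEAD list, 7 were higher and 1 lower in LAC at 16 h, where 3.36% of all tested genes were called. Whether the 16 h and 0 h levels differ from each other between the lines was called in 25 genes over the whole table.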
